A study of Mus musculus with 6 samples.

Results

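Cytosolic ribosomal proteins are the protein parts of the ribosome outside mitochondria, which reads messenger RNA and joins amino acids into protein. They assemble on ribosomal RNA in the nucleolus into a small subunit, which decodes the message, and a large subunit, which forms the peptide bond. Their messenger RNAs are abundant in every cell, and most begin with a run of pyrimidines that lets the growth-sensing kinase mTOR adjust their translation more than their abundance. The members here are the genes whose symbol starts with Rpl or Rps and a digit, or reads Rplp0, Rplp1 or Rplp2, without the kinases named Rps6k and without pseudogenes. The symbol rule used no measured value and found 62 of the 19937 genes on the array that have a probe set with 1 gene symbol. Of these, 33 are core proteins of the large subunit, 20 are core proteins of the small subunit, and 9 are paralogs or genes that carry a ribosomal protein's name. A further 23 core genes of 76 listed were not analysed here, 16 of them because every probe set naming them also names another gene.

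RNA came from mammary epithelial organoids, clumps of gland tissue of age-matched FVB female mice grown in the basement-membrane gel Matrigel. All 6 cultures carried the genotype labelled ErbB3 DOX-KO, named as a DOX-dependent knockout of the neuregulin receptor gene Erbb3. The 3 control cultures grew without doxycycline (DOX) and the 3 others with 5 µM of it, all for 14 days, and each gave 1 array. The labels name neither the promoter behind the DOX response nor mice without the allele given DOX, so the drug and the knockout cannot be told apart. Nothing says that replicates came from separate mice, so p-values measure only the spread between these cultures, which may be technical. Values are log2 expression summaries, so a difference of 1 is a 2-fold change.

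The level of the targeted gene did not show the knockout named in the labels. Erbb3 read 9.73 ± 0.05 in control and 9.83 ± 0.53 in DOX arrays (SD, n = 3 each, limma adjusted p = 0.845). Whether the gene was disrupted cannot be told from this level alone. DOX arrays are therefore called the arrays labelled DOX. DOX replicate 2 stood apart, with correlations across genes of 0.816 to 0.865 with the other arrays against 0.963 to 0.996 among those, so the main results are given with and without it. Without it Erbb3 differed from control by 0.37 (SE 0.15, limma adjusted p = 0.105). Epithelial markers were high in control (Epcam 11.56, Krt8 12.52 and Krt18 12.64). Their mean over 10 genes was 9.54 to 9.61 in control and 9.48, 8.73 and 9.37 in DOX replicates 1 to 3. Without DOX replicate 2, 3 of the 10 were lower (Krt8, Krt14 and Krt18) and Cldn4 was higher, or 30% and 10%. The median control level of the 10 was 10.56. That fit called 14.3% of all genes lower and 12.3% higher. Of 738 non-member genes with control levels of 9.92 to 12.24, it called 35.6% lower and 13.8% higher. Of 6 macrophage and leukocyte markers, Cd68 and Ptprc were higher in that fit (1.01 and 0.38, limma adjusted p = 0.000103 and 0.0358), or 33.3% beside 12.3% of all genes. The mean of the 6 was 5.06 to 5.13 in control and 5.23, 5.69 and 5.40 in DOX. Median differences from control on DOX replicate 2 were 0.83 for these markers and 0.68, 0.75 and 0.76 for fibroblast, endothelial and adipocyte markers. The median control levels of these lists were 4.74, 5.47, 4.38 and 4.38, in the same order. Genes nearest in control level to Rpl3l, Rpl10l and Rps4l, at 4.33, 4.97 and 5.70, gave 0.79, 0.67 and 0.24 on that array. The marker lists were not compared with genes of their own level. No fibroblast, endothelial or adipocyte marker passed in either fit. The part of these markers in the results below was not tested, and fewer cells of a type and less RNA per cell cannot be told apart in such bulk samples.

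The start of the transcript is shown first, because the pyrimidine run there is the feature for which this family is best known. Each window below holds 15 bases before and 15 bases from the RefSeq transcript start (GRCm38.p6), and capitals mark a C at the start followed by at least 4 bases that are all C or T. The first 5 genes have the run. The last 4 are genes that passed the test without DOX replicate 2 and have none at the annotated start.
Rps6 (chr4:86857353-86857382, minus strand): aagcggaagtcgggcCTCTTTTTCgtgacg
Rpl28 (chr7:4792950-4792979, plus strand): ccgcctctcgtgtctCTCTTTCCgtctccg
Rps18 (chr17:33955651-33955680, minus strand): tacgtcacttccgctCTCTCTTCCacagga
Rpl38 (chr11:114668565-114668594, plus strand): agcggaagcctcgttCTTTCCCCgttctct
Rps10 (chr17:27635230-27635259, minus strand): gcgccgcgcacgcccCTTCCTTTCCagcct
Rpl4 (chr9:64173372-64173401, plus strand): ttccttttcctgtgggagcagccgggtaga
Rpl7a (chr2:26910792-26910821, plus strand): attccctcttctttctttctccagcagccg
Rps12 (chr10:23787195-23787224, minus strand): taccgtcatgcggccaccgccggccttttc
Rps15 (chr10:80292416-80292445, plus strand): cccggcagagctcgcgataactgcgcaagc

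Of 53 core genes 42 had an entry in the promoter table, and 9 of them (21.4%) had the run at an annotated start, against 3.01% of the 27025 genes of that table. Searched on the strand that reads like the RNA, from 10 bases before the start to 15 bases from it, the run was found in 54.8% of these core genes and 34.4% of all genes. In Rpl7a, for example, pyrimidines cross the annotated start, which is itself a T. In the fit without DOX replicate 2 the 9 genes with the run differed from control by −0.32 to 0.09 (median −0.10), and 0 of them passed the test. The 33 without it ranged from −0.76 to 0.43 (median −0.03), and 7 passed, beside 26.6% of all genes called in either direction in that fit. With all arrays the medians were −0.18 and −0.09 and no gene of either kind passed, beside 2.38% of all genes. A missing match says only that these letters are not at the annotated start.

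Most core ribosomal protein genes lay close to their control level on DOX replicates 1 and 3 and scattered more on DOX replicate 2. The interquartile range of the difference from control there was 0.80 for core members and 1.75 for all genes. It was 1.30 for the 738 other genes with control levels of 9.92 to 12.24. With all 6 arrays, no core member passed limma at an adjusted p under 0.05, in a comparison that called 2.26% of all genes lower and 0.12% higher. At an unadjusted p under 0.05, 3 core members of 53 were lower (Rpl8, Rpl13 and Rps15) and 1 was higher (Rps12), beside 10.9% and 3.16% of all genes. The lowest adjusted p of any of the 62 members was 0.198, for Rpl8. Core members differed by −0.63 to 0.94 with a median of −0.09, beside a median of 0.02 over all genes. Standard errors in this fit were 0.16 to 0.60, and widest for members that DOX replicate 2 read far from the other arrays.

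**Figure D1:**
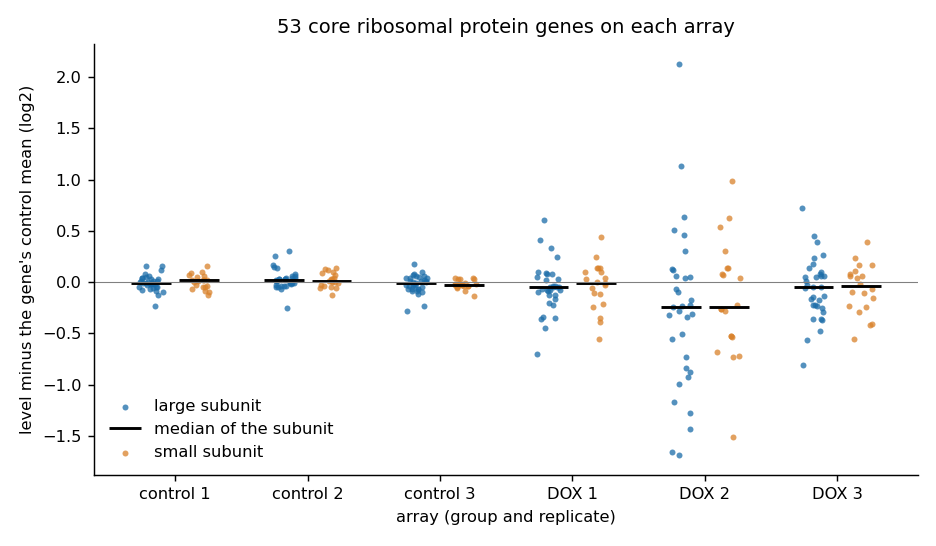
Each point is 1 of 53 core genes, plotted as its level on an array minus its mean over the 3 control arrays (log2), for the large subunit (blue) and the small subunit (orange), with a black line at the subunit's median. The points spread most on DOX replicate 2, where both medians lie near −0.25, and the medians of DOX replicates 1 and 3 lie between −0.05 and 0.

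Without DOX replicate 2, 9 core genes passed and most did not. Of 53, 6 were lower and 3 higher, or 11.3% and 5.66%, against 14.3% and 12.3% of all genes called lower and higher in that fit. Both shares lay below those of all genes, a description with no test. The 53 differed by −0.76 to 0.50 with a median of −0.05, and 51 lay within 0.5 of control. The share within 0.5 was 96.2% for core members, 81.8% for all genes, and 64.6% for the 738 other genes whose control level lay between the core members' quartiles of 9.92 and 12.24. Of those 738 genes, 35.6% were lower and 13.8% higher.

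The large and the small subunit gave similar values. On the large subunit 4 of 33 genes were lower and 2 higher without DOX replicate 2, with a median of −0.05. On the small subunit 2 of 20 were lower and 1 higher, with a median of 0.02. The mean of the large-subunit genes minus that of the small-subunit genes was −0.24, −0.22 and −0.22 in control replicates 1 to 3. It was −0.24, −0.34 and −0.23 in DOX replicates 1 to 3, so that DOX replicate 2 alone lay apart. The sign of the small-subunit median turned with the setting: it was −0.07 with all arrays, while in the fit without DOX replicate 2 it was −0.02 after a second quantile normalization, −0.05 after centring and −0.10 as the mean over each gene's probe sets.

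**Figure D2:**
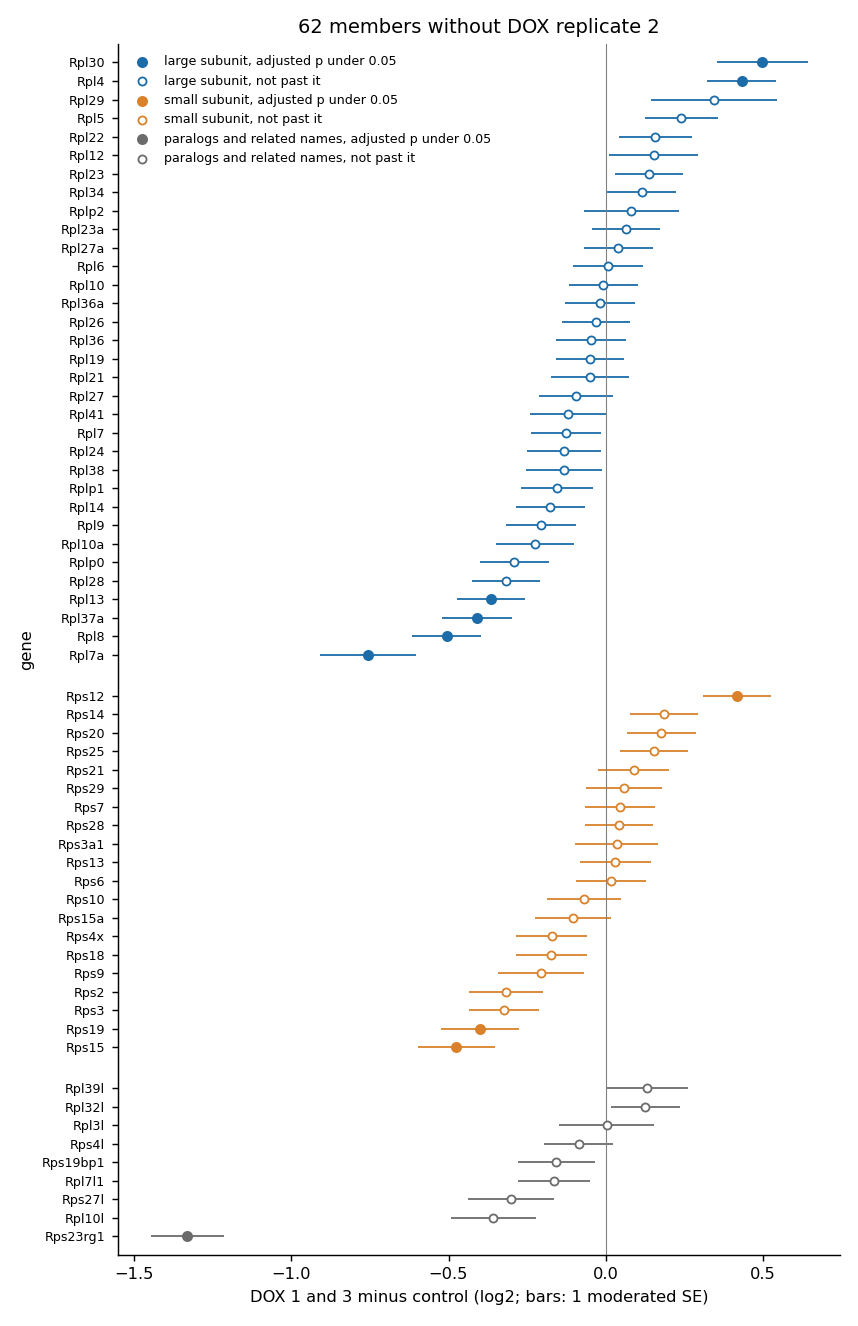
Each point is the difference of DOX replicates 1 and 3 from the 3 control arrays (log2) for 1 of the 62 members, with a bar of 1 moderated standard error, and filled points passed limma at an adjusted p under 0.05. Most points lie within 0.5 of 0 on either side, and Rps23rg1 at −1.33 lies farthest out.

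Among large-subunit genes, Rpl8 was the lowest with all arrays and kept the lower side on every one. Rpl8 lies close to the site where the peptide bond forms. It read 11.73, 11.76 and 11.70 in control replicates 1 to 3 and 11.28, 10.85 and 11.17 in DOX replicates 1 to 3. The groups do not overlap, and DOX replicate 2 was the lowest. With all arrays the difference was −0.63 (SE 0.19, limma adjusted p = 0.198). It was −0.51 without DOX replicate 2 (SE 0.11, 95% confidence interval −0.75 to −0.26, limma adjusted p = 0.00568), and it passed in all 11 alternatives of that fit.

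Rpl13 gave the same picture at a smaller size. It read 11.83, 11.85 and 11.79 in control and 11.46, 11.27 and 11.46 in DOX replicates 1 to 3, again without overlap. Its difference was −0.43 (SE 0.17, limma adjusted p = 0.321) with all arrays and −0.36 (SE 0.11, limma adjusted p = 0.0281) without DOX replicate 2. That call was lost when any further single array was left out (limma adjusted p = 0.0532 to 0.0912), and for the mean over its probe sets (−0.30, limma adjusted p = 0.106). Of the 8 other probe sets of Rpl13, 7 were also lower without DOX replicate 2 and 1 was higher by 1.23.

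Rpl7a and Rpl37a were lower on DOX replicates 1 and 3 and higher on DOX replicate 2. Rpl7a read 6.50, 6.72 and 6.18 in control and 5.76, 6.92 and 5.65 in DOX replicates 1 to 3. On the other 5 arrays it differed by −0.76 (SE 0.15, limma adjusted p = 0.00391) and passed in all 11 alternatives, and with all arrays by −0.35 (limma adjusted p = 0.617). Its 2 other probe sets were lower as well. A further 15 probe sets that name Rpl7a beside another gene were not used. Rpl37a, a zinc-binding protein, read 10.73, 10.77 and 10.84 in control and 10.43, 11.29 and 10.31 in DOX. It differed by −0.41 (SE 0.11, limma adjusted p = 0.0193) without DOX replicate 2 and by −0.10 (limma adjusted p = 0.847) with it. That call was lost without control replicate 2, control replicate 3 or DOX replicate 3 as well (limma adjusted p = 0.0561, 0.0746 and 0.0762).

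Rpl4 and Rpl30 were the large-subunit genes that passed as higher without DOX replicate 2. Rpl5, Rpl23, Rpl23a and Rpl34 also lay above all controls on DOX replicates 1 and 3 and did not pass. Rpl4, which helps line the tunnel through which the new protein leaves, read 12.49, 12.37 and 12.45 in control and 12.84, 12.19 and 12.89 in DOX replicates 1 to 3. DOX replicate 2 lay below all controls and both others above them. The difference was 0.43 (SE 0.11, limma adjusted p = 0.0138) without DOX replicate 2 and 0.21 (SE 0.24, limma adjusted p = 0.645) with it. The call of Rpl4 was lost without control replicate 2 too (limma adjusted p = 0.0547).

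Rpl30 changed direction with DOX replicate 2. It read 7.15, 6.75 and 7.09 in control and 7.60, 5.31 and 7.38 in DOX replicates 1 to 3. Its difference was 0.50 (SE 0.14, limma adjusted p = 0.0258) without DOX replicate 2 and −0.23 (SE 0.60, limma adjusted p = 0.837) with it. It lost its call in 4 of 11 alternatives, among them without control replicate 2 or DOX replicate 1 (limma adjusted p = 0.0912 and 0.119). A further 8 probe sets that name Rpl30 beside other genes were not used.

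The remaining large-subunit genes did not pass in either fit. Rpl29 gave the widest gap between arrays, with 7.18, 7.11 and 6.79 in control and 6.99, 9.16 and 7.75 in DOX replicates 1 to 3 (0.94 with all arrays and 0.34 without DOX replicate 2, limma adjusted p = 0.448 and 0.243). Rpl29 has 1 probe set of its own, and 31 that name it beside other genes were not used. Rplp0, which anchors the stalk that binds elongation factors and often serves as a reference gene, read 13.12, 13.12 and 13.14 in control and 12.90, 12.14 and 12.77 in DOX. Every DOX array lay below control, and the differences of −0.52 with all arrays (SE 0.24, limma adjusted p = 0.401) and −0.29 without DOX replicate 2 (SE 0.11, limma adjusted p = 0.0761) did not pass. After a second quantile normalization it was −0.43 and passed (limma adjusted p = 0.00892). Rpl28 differed by −0.52 with all arrays and −0.32 without DOX replicate 2 (limma adjusted p = 0.37 and 0.0527), also with all 3 DOX arrays below control. Rpl5, which can bind the p53 inhibitor Mdm2 when it is outside the ribosome, differed by 0.24 without DOX replicate 2 (95% confidence interval −0.01 to 0.49, limma adjusted p = 0.156) and 0.10 with it (limma adjusted p = 0.783). Rpl22 differed by 0.16 and 0.07 (limma adjusted p = 0.369 and 0.827).

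On the small subunit Rps12 rose and Rps15 and Rps19 fell without DOX replicate 2. Rps12 read 11.27, 11.26 and 11.22 in control and 11.70, 12.24 and 11.64 in DOX replicates 1 to 3, with every DOX array above control. Its difference was 0.42 (SE 0.11, limma adjusted p = 0.0152) without DOX replicate 2 and 0.61 (SE 0.22, limma adjusted p = 0.286) with it. The call was lost without control replicate 3 (limma adjusted p = 0.0579). The mean over all 7 of its probe sets gave 0.16 (limma adjusted p = 0.376), with 4 of the other 6 higher and 2 lower.

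Rps15, which sits where the subunits meet, read 10.70, 10.93 and 10.74 in control and 10.40, 10.26 and 10.23 in DOX. All DOX arrays lay below all controls. The difference was −0.49 (SE 0.17, limma adjusted p = 0.27) with all arrays and −0.47 (SE 0.12, limma adjusted p = 0.0142) without DOX replicate 2. It did not pass without control replicate 2 or DOX replicate 3 in addition (limma adjusted p = 0.061 and 0.0699). Its 2 other probe sets were lower too.

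Rps19, the gene most often mutated in Diamond-Blackfan anaemia, read 8.44, 8.42 and 8.40 in control and 7.86, 9.05 and 8.18 in DOX. DOX replicate 2 was above control and the others below. The difference without DOX replicate 2 was −0.40 (SE 0.12, limma adjusted p = 0.0357), and leaving out any further single array but DOX replicate 3 ended the call (limma adjusted p = 0.0794 to 0.184). With all arrays it was −0.06 (limma adjusted p = 0.924).

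Rps6, the substrate that gives the S6 kinases below mTOR their name, did not pass in either fit. It read 12.39, 12.39 and 12.35 in control and 12.47, 12.44 and 12.31 in DOX replicates 1 to 3, and the groups overlap. Its difference without DOX replicate 2 was 0.02 (95% confidence interval −0.23 to 0.26, limma adjusted p = 0.938). Rps14, Rps20, Rps25 and Rps21 differed by 0.18, 0.18, 0.15 and 0.09 without DOX replicate 2 and did not pass. With all arrays they differed by 0.22, 0.16, 0.01 and −0.18, so that Rps21 turned its sign. Rps3, Rps2 and Rps9 differed by −0.32, −0.32 and −0.21 and did not pass either (limma adjusted p = 0.0514, 0.0685 and 0.303), nor with all arrays (−0.29, −0.31 and −0.31). Rps3 helps form the entry for messenger RNA, and its 3 DOX arrays read 10.94, 11.06 and 10.99 below controls at 11.36, 11.24 and 11.26.

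Without a test, the arrays labelled DOX lay wholly below control for 12 and wholly above for 6 of 53 core genes. These are 22.6% and 11.3%, near the 20.3% and 11.7% of all genes. Leaving out DOX replicate 2, 17 and 11 did not overlap, or 32.1% and 20.8%, against 26.2% and 25.4% of all genes.

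On DOX replicate 2 most core genes lay higher, relative to control, than the other genes nearest to them in control level. There the median difference from control was −0.25 for the core members and −1.73 for the 200 genes nearest in control mean to each of them. Taken gene by gene, the core members lay a median of 1.45 above their nearest genes, with 48 of 53 above them (28 of 33 large, 20 of 20 small). No test was made of this value, which comes from 1 array. The 7 translation elongation factors also had a median close to 0 on that array, at −0.08. Among those Eef2, which moves the ribosome along the message, read 12.49 against a control mean of 12.57, and Eif5a read 9.08 against 11.70. For the 7 brightest core members the nearest genes were the same 200, with control means of 11.08 to 13.89, so many of those are dimmer than the member. The span was wide for other bright members too, such as 11.07 to 13.68 for Rpl4 at 12.43 and 11.06 to 13.07 for Rps7 at 12.13. The 5 core genes below their nearest genes were Rpl12, Rpl14, Rpl30, Rpl34 and Rplp2, with control means of 5.96 to 8.16.

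Single members moved both ways on that array. Rpl24 read 13.05 there against 11.97, 11.94 and 11.82 in control. Rps28 read 11.27 against 10.68, 10.76 and 10.76. Rpl10, Rps18 and Rpl9, at the top of the scale, read 11.81, 11.99 and 12.54 there against control means of 13.25, 13.51 and 13.72. In all, 20 of 53 core genes lay above their control mean on DOX replicate 2 and 6 lay more than 1 below it.

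On DOX replicates 1 and 3 the gap to genes of similar control level was small. The core members' median was −0.05 on each, and that of their nearest genes −0.16 and −0.17. Averaged over both arrays, the core members lay a median of 0.09 above their nearest genes, with 34 of 53 above. With all 3 DOX arrays the median gap was 0.52, against 0.09 without DOX replicate 2.

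**Figure D3:**
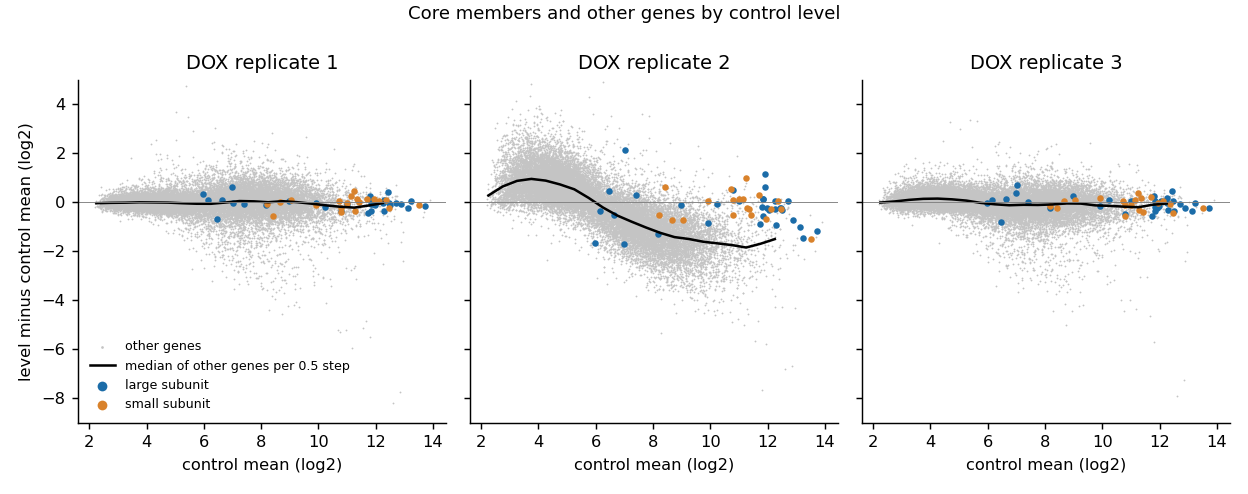
Each panel plots the level on 1 DOX array minus the control mean (log2) against the control mean (log2), with other genes in grey, their running median as a black line, large-subunit core genes in blue and small-subunit ones in orange. On DOX replicate 2 the line lies well below 0 for bright genes (median −1.73 for the core genes' nearest genes) while most core genes lie nearer to 0, with a median of −0.25.

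Of the 9 paralogs and related names 1 was lower without DOX replicate 2, or 11.1% beside 14.3% of all genes, and the other 8 differed by −0.36 to 0.13. None passed with all arrays, where the median was −0.44. Rps23rg1 is a retroposed copy of Rps23 and not a part of the ribosome. It read 7.00, 7.13 and 6.92 in control and 5.75, 6.71 and 5.63 in DOX replicates 1 to 3, so that every DOX array was lower and DOX replicate 2 the least. The difference was −1.33 (SE 0.12, 95% confidence interval −1.59 to −1.07, limma adjusted p = 1.30e-05) without DOX replicate 2, and it passed in all 11 alternatives. With all arrays it was −0.99 (SE 0.31, limma adjusted p = 0.227). Whether its probe set also measures Rps23, from which it was copied and which was not analysed here, cannot be told from these files.

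Rps27l, a paralog of Rps27 that p53 can induce, read 8.67, 8.47 and 8.39 in control and 8.38, 7.36 and 8.05 in DOX (−0.59 with all arrays and −0.30 without DOX replicate 2, limma adjusted p = 0.418 and 0.137). Rpl7l1, a protein of large-subunit assembly, and Rps19bp1, which binds Rps19, each gave −0.16 (limma adjusted p = 0.337 and 0.388). Rpl10l and Rpl39l, known from testis, and Rpl3l, known from muscle, read 4.97, 3.65 and 4.33 in control, below the median of all genes of 5.92. The limma adjusted p was 0.0778, 0.518 and 0.991 for their differences of −0.36, 0.13 and 0.00, and RMA values at such levels can understate a difference. Rpl32l differed by 0.13 and Rps4l by −0.09, beside −0.17 for Rps4x, and none of these passed. The core genes Rpl10 and Rpl7, after which others are named, differed by −0.01 and −0.13 and did not pass.

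Probe sets of the same member often gave unlike differences from control. The 62 members have 190 probe sets with that symbol alone, and 37 members have at least 2. Without DOX replicate 2 the median range of the difference over the probe sets of these 37 was 0.39. The median size of a core member's difference was 0.15. A range widens with the number of probe sets, so these 2 values are not like measures. In 19 of 37 members the probe sets lay on both sides of 0. Rpl13 had the widest range, 2.16, and Rpl10 ran from −0.37 to 1.55 over 5 probe sets. Rplp0, Rps14 and Rplp1 were the narrowest, each with 2 probe sets less than 0.1 apart. Ribosomal protein genes have many processed pseudogenes, and the sources used here do not say which genomic copy a probe set matches.

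**Figure D4:**
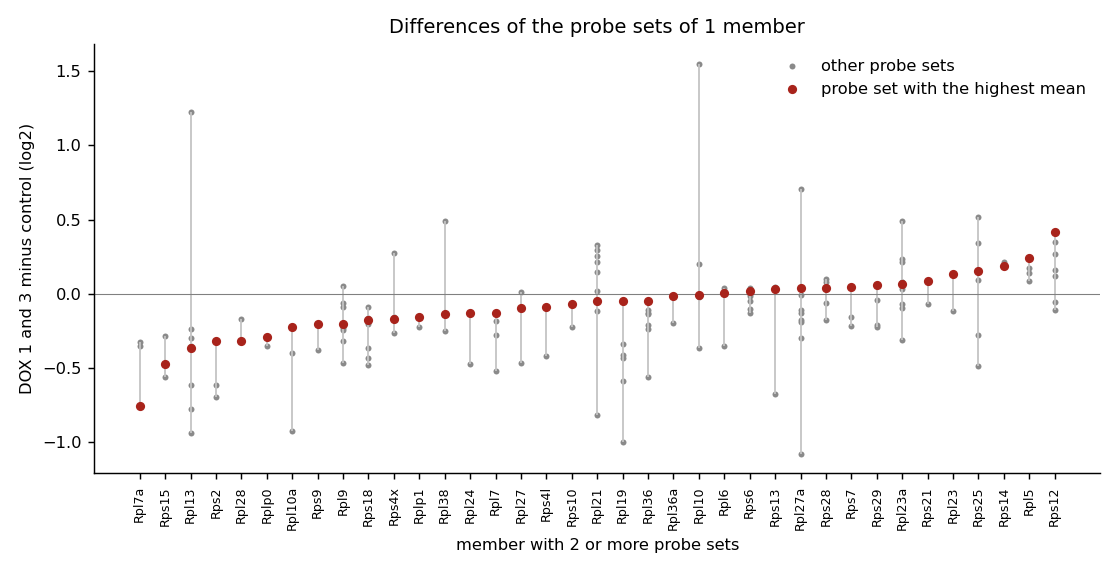
For each of the 37 members with at least 2 probe sets, points show the difference of DOX replicates 1 and 3 from control (log2) for every probe set, with the one of highest mean, used in the tests, in red. Grey lines span the range, whose median is 0.39 and which crosses 0 in 19 members.

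Rpsa and Fau are core genes whose names do not follow the pattern. Rpsa, a small-subunit protein also known as a laminin receptor, read 11.46, 11.58 and 11.36 in control and 11.06, 11.45 and 10.86 in DOX replicates 1 to 3. Its difference was −0.51 (SE 0.12, limma adjusted p = 0.0102) without DOX replicate 2 and −0.34 (limma adjusted p = 0.467) with it. Fau, whose product is cut to release a small-subunit protein, differed by −0.15 (limma adjusted p = 0.434).

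The other genes of the pathway moved in part on DOX replicates 1 and 3, and their counts are without DOX replicate 2 unless stated, in the fit that called 14.3% of all genes lower and 12.3% higher. With all arrays none of them passed but Deptor and Mrpl48, given below. Of 29 translation initiation factors, 4 were lower and 8 higher, or 13.8% and 27.6% (median −0.03, and −0.51 with all arrays). Eif3a and Eif3c, subunits of the large initiation complex that binds the small subunit, rose by 0.96 and 0.86 (SE 0.12 each, limma adjusted p = 0.000130 and 0.000308), and did not pass with all arrays (0.74 and 0.53, limma adjusted p = 0.231 and 0.45). Of 7 elongation factors Eif5a alone passed, at −0.78 (limma adjusted p = 0.000716), and the list's median was 0.07 (−0.01 with all arrays). Of 18 genes of ribosomal RNA synthesis Taf1b alone passed, higher by 0.45 (limma adjusted p = 0.033), and the median turned from 0.08 to −0.16 with all arrays.

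Of 73 ribosome assembly and ribosomal RNA processing genes, 9 were lower and 17 higher, or 12.3% and 23.3% (median 0.13). With all arrays the median turned to −0.34, and on DOX replicate 2 it was −1.08, with 0 of 73 above their control mean. Of all 19937 genes, 9904 lay above their control mean on that array. The median control level of the list was 8.24. Genes nearest in control level to Rpl14 and Rps15a, at 8.16 and 8.19, gave −1.24 and −1.21 on DOX replicate 2. The assembly list was not compared with genes of its own level. Utp20 and Rrs1, which act in the processing of ribosomal RNA, rose by 1.13 and 1.01 (SE 0.16 and 0.17, limma adjusted p = 0.000352 and 0.0015). Of 8 chaperones that hold single ribosomal proteins before assembly, 4 were lower and 2 higher (median −0.25, and −0.44 with all arrays). Heatr3, which serves Rpl5 and Rpl11, differed by −0.89 and Bccip, which serves Rpl23, by 0.83 (limma adjusted p = 0.000159 and 0.000291). Mdm2 and Mdm4, inhibitors of p53, were higher by 0.81 and 0.61 (limma adjusted p = 0.000407 and 0.00687). On DOX replicate 2 Mdm2 read 7.56, below its control mean of 8.83.

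Of 33 genes of mTOR and growth control, 6 were lower and 11 higher, or 18.2% and 33.3%. Their median was 0.09, and turned to −0.26 with all arrays. Deptor, an inhibitor of mTOR, fell by 1.30 with all arrays (SE 0.19, limma adjusted p = 0.0238), from 8.10 ± 0.17 to 6.79 ± 0.19 (SD, n = 3 each). Rheb, the small GTPase that activates mTOR, rose by 1.07 without DOX replicate 2 (SE 0.13, limma adjusted p = 0.000118), with 10.18 and 10.21 on DOX replicates 1 and 3 against 8.04 on DOX replicate 2 and a control mean of 9.13.

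Genes of the mitochondrial ribosome, which translates the messages of the mitochondrial genome, gave other counts than those of the cytosolic ribosome. Of 77 measured, 33 were lower and 2 higher, or 42.9% and 2.6% beside 14.3% and 12.3% of all genes, with a median of −0.28 (−0.66 with all arrays). The core cytosolic genes had 6 lower and 3 higher of 53 and a median of −0.05. Mrpl49 and Mrpl54 differed by −1.02 and −0.99 (limma adjusted p = 0.000186 and 0.000854). With all arrays Mrpl48 alone passed, at −0.98 (limma adjusted p = 0.0398). On DOX replicate 2 the median was −1.26 for the mitochondrial and −0.25 for the core cytosolic genes, and the difference between the lists was not tested. Their median control levels were 7.94 and 11.41. Genes nearest in control level to Rpl14 and Rps15a, at 8.16 and 8.19, gave −1.24 and −1.21 on that array, and those nearest to the core members −1.73. The mitochondrial list was not compared with genes of its own level.

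**Figure D5:**
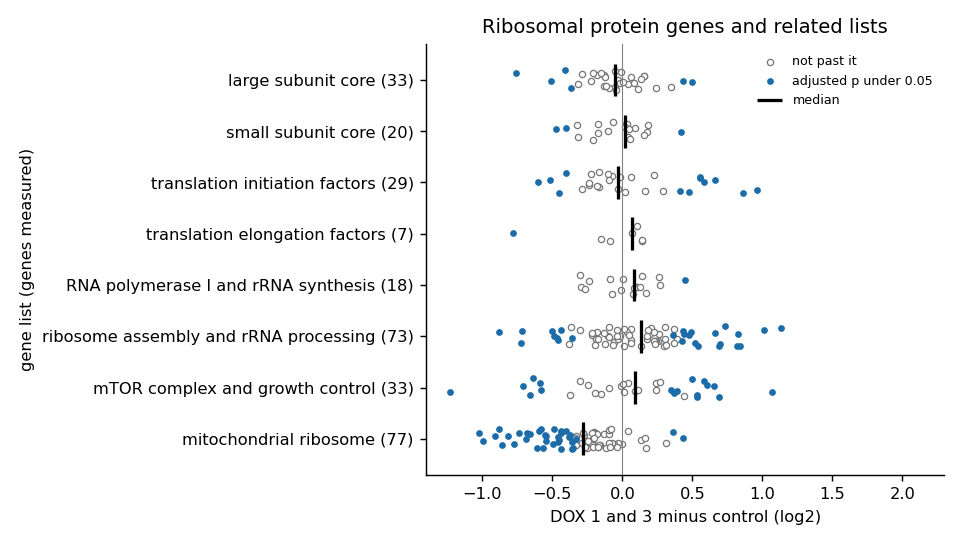
Each point is 1 gene's difference of DOX replicates 1 and 3 from control (log2), by gene list, with filled points past limma at an adjusted p under 0.05 and a black line at each list's median. The medians of the core ribosomal protein genes lie at −0.05 and 0.02, and that of the mitochondrial ribosome at −0.28.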

How the data were processed

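Total RNA of 6 cultures was measured on 1-colour Affymetrix arrays. Per the submitters' processing notes, which name RMA and affy without versions, the authors summarised probe sets on the log2 scale, and these values were used as deposited. Of 34760 probe sets, 21640 name 1 gene symbol in the platform annotation, 1321 several and 11799 none; the first kind was used. Where a gene had several, the probe set brightest on average stood for it, giving 19937 genes. Groups come from the sample titles.

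A linear model without covariates (limma 3.58.1, R 4.3.3, two-sided moderated test) was fitted over all genes with all arrays and without DOX replicate 2. P-values were adjusted over all genes by Benjamini-Hochberg, at a threshold of 0.05. The code was tested on simulated data. Lists are described by counts and medians, without a test. For each member, the 200 other genes nearest in control mean gave the level comparison. Start sequences are RefSeq's. The number of arrays limits the precision, and RMA gives no detection call.

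Members and lists were chosen with earlier results of these data known. Named were the 5 largest differences in each direction per subunit without DOX replicate 2, any member called with all arrays, the paralogs with the genes they are named after, Rpsa, Fau, Rplp0, Rps6, Rpl5, Erbb3 and up to 2 called genes of each related list. Other members, Mrpl48 and the marker genes were chosen after their values were seen. The closing section gives the alternatives. Those of quantile normalization for the level comparison, core members at or above the median level, and DOX replicate 2 left out as a result of its own were chosen after seeing the data.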

Additional observations from a re-analysis of the deposited data

How the results depend on the processing

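With all arrays 0 core members passed under any alternative that keeps DOX replicate 2. Without DOX replicate 2 the 6 lower and 3 higher calls became 2 and 0 at a threshold of 0.01, 10 and 3 after a second quantile normalization, 10 and 2 after centring each array on its median, and 11 and 4 with a variance trend and robust estimation. Leaving out a further array gave 2 to 6 lower and 1 to 3 higher. With the replicate block the counts were 2 lower and 0 higher, so that of the 9 core genes called only Rpl7a and Rpl8 kept their calls. Deviations of same-numbered arrays correlated at 0.117, 0.194 and 0.0852, so the numbers were not taken to pair the cultures. In these alternatives of the fit without DOX replicate 2 no called member changed its sign. Over all genes, the 450 lower and 24 higher calls with all arrays became 159 and 3 with the block, and 61 to 264 and 2 to 9 with 1 array other than DOX replicate 2 left out. Among those calls 5.06% were higher, against 22.8% after quantile normalization. Centring shifted the median of all genes from 0.02 to −0.18 with all arrays, and the small-subunit median from −0.07 to −0.28. It moved the share of higher genes among all calls without DOX replicate 2 from 46.2% to 34.8%. The mean over probe sets moved the small-subunit median without DOX replicate 2 from 0.02 to −0.10. The gap of 0.52 to genes of similar control level was 0.0937 to 0.79 with 1 array left out, lowest without DOX replicate 2 and 0.73 without DOX replicate 3. The cause of these shifts was not tested.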
